A study of Mus musculus with 6 samples.

Results

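Decorin, biglycan, asporin, lumican, fibromodulin, prolargin, osteomodulin, osteoglycin and podocan are small leucine-rich proteoglycans, and versican is the large proteoglycan that is most often found beside them in fibroblast matrix. Their genes (Dcn, Bgn, Aspn, Lum, Fmod, Prelp, Omd, Ogn, Podn and Vcan) were taken by symbol from the table of gene counts, giving 10 of its 54752 genes. The data are rRNA-depleted RNA-seq libraries of the mouse embryonic fibroblast line NIH/3T3, cultured for 72 h in 3 groups of 2 replicates. The vehicle group received PBS. The other two received 1 ng/ml TGF-β1, either together with DMSO or together with 5 μM BI6727, an inhibitor of the mitotic kinase PLK1. As the vehicle was PBS, DMSO and TGF-β1 cannot be told apart in any comparison with vehicle. The labels do not say whether replicates were separate cultures, so p-values measure only the spread between these samples, which may be technical.

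Small leucine-rich proteoglycans are secreted proteins whose curved repeat domain binds collagen, and most of them set the diameter and spacing of collagen fibrils. Many carry chains of chondroitin, dermatan or keratan sulfate, and decorin and biglycan can also bind TGF-β itself. Versican carries many chondroitin sulfate chains, binds hyaluronan, and forms the loose, hydrated matrix of embryonic tissue and healing wounds.

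Libraries held between 18362378 and 24452153 counts on genes, and all 7 fibroblast markers (Col1a1, Col1a2, Col3a1, Pdgfrb, Thy1, Vim and S100a4) had a mean above 1 normalized CPM (counts scaled to a common library size by edgeR's TMM method). Replicates were different libraries, and the DMSO pair lay farthest apart: among genes at 10 CPM or more, the SD of the log2 difference between replicates was 0.38, against 0.17 for vehicle and 0.16 for BI6727. DMSO replicate 2 also had a trend on gene length, which reached -0.37 on the log2 scale at the length of Vcan and lay between -0.01 and 0.15 in the other 5 libraries. Between 59.35% and 60.45% of the counts from 1 to 10 in each library were even, against 48.96% to 52.84% of the counts above 100 and up to 200. Nearly all counts of the rare members Aspn, Ogn, Prelp and Omd were even as well. What this does to their counts was not tested, and reads copied by PCR are not independent molecules. The counting intervals given here treat each count as independent, so they may be too narrow even for counting error.

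Levels of different genes were compared per kb of exonic length. In vehicle, Bgn stood at 213 ± 10.8 normalized CPM per kb (SD, n = 2) and Dcn at 186 ± 30.5, and the higher Dcn library (207) passed the lower Bgn library (205). Vcan followed at 29.3 ± 1.62 and Lum at 3.70 ± 1.10, each apart from its neighbours in the order. Aspn (0.718 ± 0.316), Ogn (0.715 ± 0.0990) and Prelp (0.645 ± 0.0725) did not differ beyond their spread, and Omd was at 0.448 ± 0.126. Fmod and Podn were close to absent. Fmod had 2 and 0 counts in vehicle, 4 and 0 with DMSO, and none with BI6727. Podn had 1 count, in BI6727 replicate 1. A count of 0 allows a level of up to 0.123 to 0.165 normalized CPM, depending on the library. Neither gene reached the minimum of 10 counts over the 6 libraries, so 8 members were tested.

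Biglycan made up a larger share of the summed level of the 10 transcripts in each library with TGF-β1 than in either vehicle library, and decorin a smaller one. Bgn made up 47.4% and 51.0% of the summed level per kb in vehicle, 75.8% and 76.3% with DMSO, and 71.8% and 72.7% with BI6727. Dcn made up 44.5% and 40.8% in vehicle, 17.1% and 19.0% with DMSO, and 21.2% and 19.7% with BI6727. Vcan held between 4.27% and 7.45% in every library. The order of Bgn and Dcn in vehicle depended on the length used. With the longest protein-coding transcript, a choice made after seeing the data (1758 bases for Dcn and 2419 for Bgn, against exonic lengths of 5838 and 6099), Dcn led with 51.5% ± 2.79 against 45.1% ± 2.70 (n = 2). With TGF-β1, Bgn was first with each of the 3 lengths tried.

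**Figure D1:**
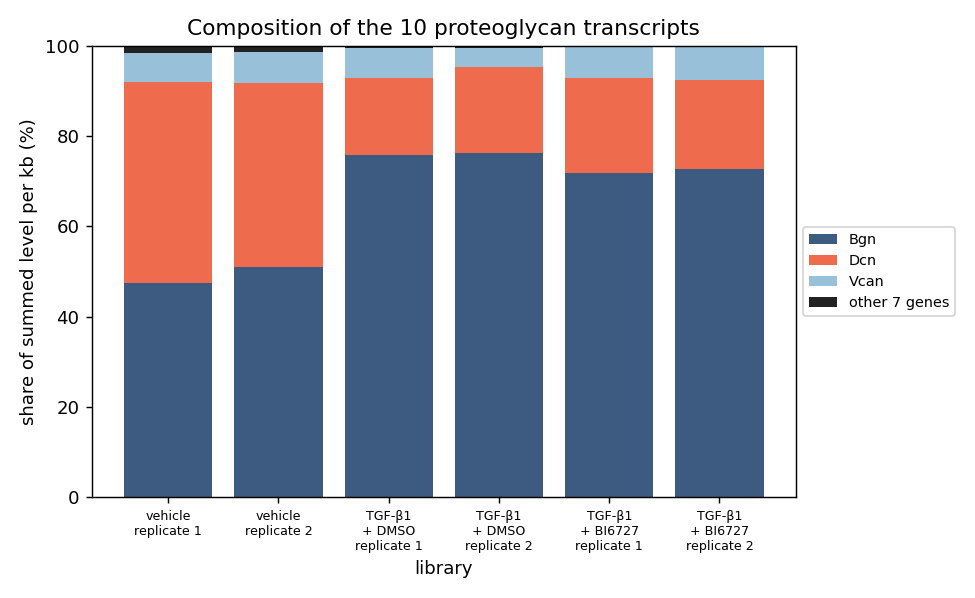
Share of the summed level per kb of exonic length (%, y axis) held by Bgn, Dcn, Vcan and the other 7 genes in each of the 6 libraries (x axis). Bgn holds 47.4% and 51.0% in the vehicle libraries and at least 71.8% in the 4 libraries with TGF-β1, where Dcn holds 21.2% or less.

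The small proteoglycan genes lie in clusters in mm10, the genome of the count table. Dcn (chr10:97479609-97518143, plus strand) is followed by Lum (chr10:97565128-97572703, plus strand). Aspn (chr13:49544443-49567565), Omd (chr13:49582462-49592822) and Ogn (chr13:49608046-49624501) follow each other on the plus strand, within the span of the minus-strand gene Cenpp. Prelp (chr1:133910304-133921414, minus strand) and Fmod (chr1:134037254-134048277, plus strand) are neighbours as well. Bgn is on the X chromosome (chrX:73483602-73495933, plus strand), Podn on chr4:108014791-108096445 and Vcan on chr13:89655312-89742509, both on the minus strand. Cenpp shares 7 exonic bases with Aspn and none with Omd or Ogn, and it had between 110 and 213 counts in each library. The strand setting of the counting is not given in the sources used here, so antisense reads cannot be told apart. Of the exonic length of Prelp, 9.68% is covered by the antisense gene Gm15851, which had 0 counts in each library.

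Promoters were taken from RefSeq (GRCm38.p6, 250 bases before to 50 after the start site), which held an entry for 8 members and none for Dcn and Lum. Each was searched on both strands for the SMAD-binding element CAGAC, the AP-1 element TGAGTCA and the TATA box TATAAA, and positions count from 1 at the start site, with -1 just before it. A few are shown, in lower case from 5′ to 3′ with each match on either strand in capitals: Prelp (chr1:133921352-133921651, minus strand) and Ogn (chr13:49607765-49608064, plus strand), which lay below vehicle in all 4 libraries with TGF-β1, Aspn (chr13:49544193-49544492, plus strand), which was low in the BI6727 libraries, and Bgn (chrX:73483351-73483650, plus strand), which was not called in any comparison.
Prelp: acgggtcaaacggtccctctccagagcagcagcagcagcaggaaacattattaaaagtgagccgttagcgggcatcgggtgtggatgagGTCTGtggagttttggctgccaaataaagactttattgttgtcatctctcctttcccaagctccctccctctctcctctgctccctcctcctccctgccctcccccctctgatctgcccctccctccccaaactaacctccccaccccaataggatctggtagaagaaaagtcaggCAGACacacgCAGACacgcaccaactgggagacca
Ogn: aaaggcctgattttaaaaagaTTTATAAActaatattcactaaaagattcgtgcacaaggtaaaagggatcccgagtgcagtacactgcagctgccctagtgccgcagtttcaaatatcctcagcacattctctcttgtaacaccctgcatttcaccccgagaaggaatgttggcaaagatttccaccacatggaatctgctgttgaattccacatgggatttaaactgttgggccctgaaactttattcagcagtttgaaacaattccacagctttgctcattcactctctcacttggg
Aspn: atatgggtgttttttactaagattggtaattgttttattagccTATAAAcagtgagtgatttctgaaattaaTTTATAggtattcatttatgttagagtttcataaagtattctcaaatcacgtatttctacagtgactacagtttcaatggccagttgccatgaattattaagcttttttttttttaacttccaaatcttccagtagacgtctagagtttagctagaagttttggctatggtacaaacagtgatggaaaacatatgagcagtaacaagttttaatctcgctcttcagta
Bgn: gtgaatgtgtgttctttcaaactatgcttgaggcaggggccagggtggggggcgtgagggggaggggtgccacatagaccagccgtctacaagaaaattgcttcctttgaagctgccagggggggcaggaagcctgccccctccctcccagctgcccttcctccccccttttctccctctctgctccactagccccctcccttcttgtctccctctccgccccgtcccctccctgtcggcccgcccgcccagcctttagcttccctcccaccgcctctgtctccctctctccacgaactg

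The Prelp promoter held CAGAC at -161, 16 and 26, the first on the minus strand relative to the gene. Its neighbour Fmod held it at -195 and -148, and 1 of the 2 Podn promoters held it at 38. Of all 32851 promoters, 49.6% held this element. TATAAA was found in Aspn, at -207 and -178, and in Ogn, at -229 and -227, where the matches on the 2 strands overlap, against 13.6% of all promoters. TGAGTCA, which 5.2% of promoters hold, had no match in the 8 members searched, and none of the 3 elements was found in Bgn, Omd or Vcan. These matches are descriptions of the sequence and show no binding.

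TGF-β1 with DMSO was compared with vehicle to find the response of the proteoglycan transcripts to the cytokine that turns fibroblasts into matrix-producing myofibroblasts. Decorin, lumican and prolargin fell, and no member rose. Dcn was lowered 3.89-fold, Lum 8.83-fold and Prelp 23.2-fold. Biglycan, the closest relative of decorin, was not called, and its groups overlapped. Calls required more than a 2-fold change and an adjusted p below 0.01 by the quasi-likelihood test of edgeR, with p-values adjusted after Benjamini and Hochberg over 17936 genes. In this comparison 3 of the 8 tested members were called lower, where 2.72% of all tested genes were called lower and 5.02% in either direction. Prelp could be tested only through its counts in vehicle, so it had to differ, and 2 of the other 7 were called. At an unadjusted p below 0.05 there were 6 members, Prelp among them, against 30.5% of all tested genes. With 2 libraries in each group the smallest p of an exact permutation test is 0.333, and none is given.

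**Figure D2:**
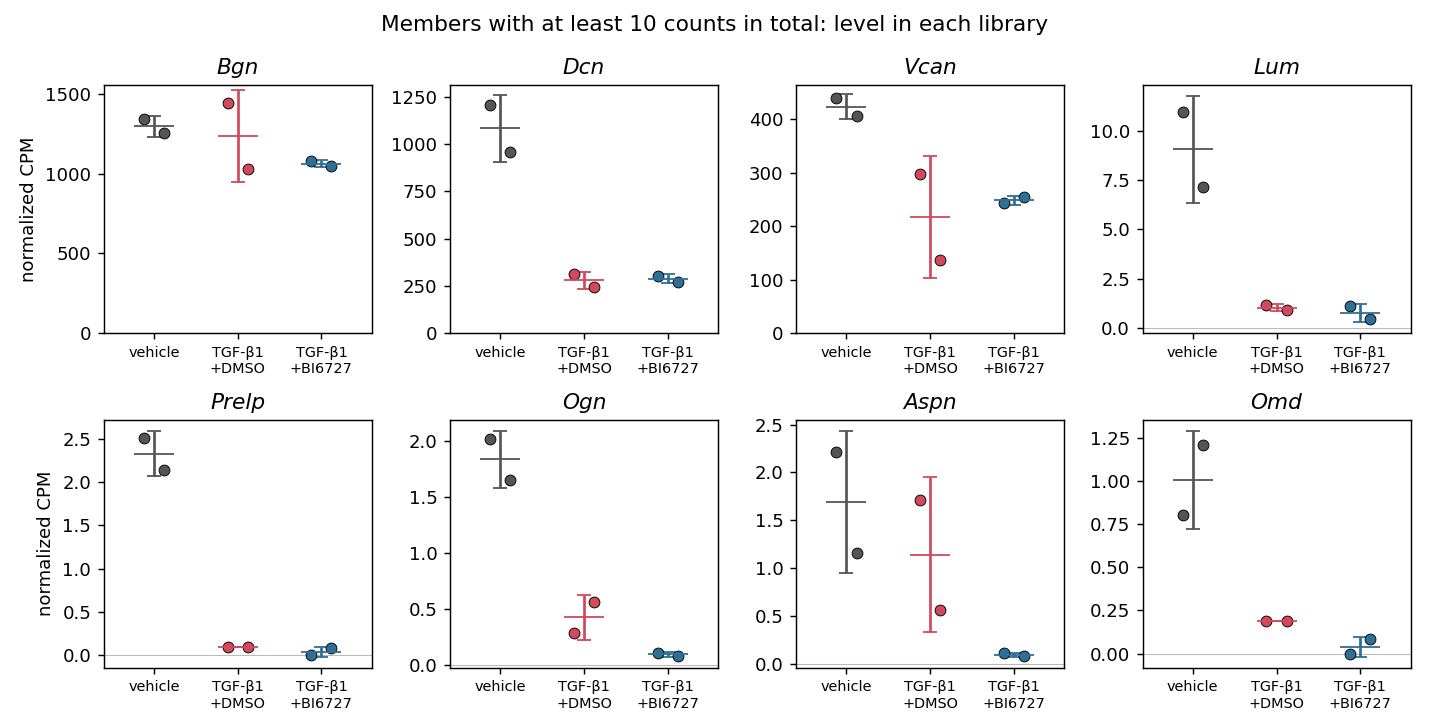
Normalized CPM (y axis, from 0 on a scale of its own in each panel) of the 8 members with at least 10 counts, by group (x axis). Points are libraries, horizontal lines the means and bars the SD (n = 2). Both vehicle libraries lie above the 4 others for Dcn, Lum, Prelp, Ogn, Omd and Vcan.

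Decorin binds collagen and also TGF-β and several receptors of the cell surface. Dcn was at 1210 and 959 normalized CPM in vehicle, at 311 and 246 with TGF-β1 and DMSO, and at 305 and 272 with TGF-β1 and BI6727. Both vehicle libraries lay far above the 4 others, which overlapped each other. The log2 fold change with TGF-β1 and DMSO was -1.96 ± 0.16 (SE), with an edgeR adjusted p of 3.85e-05. As the RNA came from whole cultures, fewer cells expressing a gene and less of its RNA per cell cannot be told apart.

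Biglycan has the same repeat domain and can signal through toll-like receptors when it is released from the matrix. Bgn was at 1345 and 1252 normalized CPM in vehicle, at 1442 and 1031 with DMSO, and at 1079 and 1048 with BI6727. The DMSO libraries lay on either side of vehicle. The log2 fold change of -0.07 had a 95% interval of -0.41 to 0.27 and an edgeR adjusted p of 0.803, and its sign turned when DMSO replicate 2 was left out (0.17). That interval does not overlap the one of Dcn, -2.32 to -1.61.

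Asporin, a relative of decorin that binds collagen and TGF-β1 and carries no chain, was rare. Aspn had 44 and 26 counts in vehicle (2.22 and 1.16 normalized CPM), 36 and 12 with DMSO (1.71 and 0.566), and 2 and 2 with BI6727 (0.110 and 0.0817). Vehicle and DMSO overlapped, and both BI6727 libraries lay below the other 4. For DMSO against vehicle the log2 fold change was -0.56 ± 0.58 (edgeR adjusted p = 0.561), and 0.046 without DMSO replicate 2.

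Lumican, which carries keratan sulfate in the cornea and spaces collagen fibrils, had 218 and 160 counts in vehicle. These were 10.98 and 7.16 normalized CPM, against 1.14 and 0.897 with DMSO (24 and 19 counts) and 1.10 and 0.449 with BI6727 (20 and 11 counts). All 4 libraries with TGF-β1 lay below both vehicle libraries. The log2 fold change with DMSO was -3.14 ± 0.39 (edgeR adjusted p = 0.000502), and the ratio of the counts, vehicle over DMSO and scaled to library size, was 8.78 with an exact 95% counting interval of 6.40 to 12.3. Without vehicle replicate 1, Lum was no longer called (edgeR adjusted p = 0.0207).

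Prolargin, which links basement membranes to collagen through heparan sulfate, had the largest fold change of the members. Prelp had 50 and 48 counts in vehicle (2.52 and 2.15 normalized CPM), 2 and 2 with DMSO (0.0952 and 0.0944), and 0 and 2 with BI6727. Of its 104 counts, 98 lay in vehicle, so Prelp reached the minimum for testing through vehicle alone. The log2 fold change with DMSO was -4.54 ± 0.69 (edgeR adjusted p = 0.00179), and the count ratio was 24.5, with a counting interval of 9.26 to 91.6. The call was lost without either vehicle replicate (edgeR adjusted p = 0.0400 and 0.0260) and with limma's voom (adjusted p = 0.0367).

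Osteomodulin, a keratan sulfate proteoglycan of mineralizing bone, and osteoglycin, a small proteoglycan also known as mimecan, were lower in both DMSO libraries than in both vehicle libraries but were not called. Omd had 16 and 27 counts in vehicle (0.806 and 1.21 normalized CPM), 4 and 4 with DMSO (0.190 and 0.189), and 0 and 2 with BI6727. Its log2 fold change with DMSO was -2.38 ± 0.80 (edgeR adjusted p = 0.0741). Ogn had 40 and 37 counts in vehicle (2.01 and 1.65 normalized CPM), 6 and 12 with DMSO (0.286 and 0.566), and 2 and 2 with BI6727 (0.110 and 0.0817). The groups followed each other downwards with no overlap. Its log2 fold change with DMSO was -2.09 ± 0.54 (edgeR adjusted p = 0.0266).

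Versican was lower in each of the 4 libraries with TGF-β1, but the size of the difference rested on the choice of DMSO library. Vcan was at 440 and 407 normalized CPM in vehicle, at 298 and 137 with DMSO, and at 243 and 254 with BI6727. The DMSO replicates lay on either side of the BI6727 pair. The log2 fold change with DMSO was -0.96 ± 0.28 (edgeR adjusted p = 0.0412), short of both thresholds. It was -1.64 without DMSO replicate 1, which passed (edgeR adjusted p = 6.50e-11), and -0.49 without DMSO replicate 2, the library with the length trend, where the fold change stayed below 2 (edgeR adjusted p = 6.81e-05). With the length trend removed from each library it was -0.79 (edgeR adjusted p = 0.00162). Counts were made per gene, so the spliced forms of versican cannot be told apart.

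Both DMSO libraries lay below both vehicle libraries for 6 of the 8 tested members, where 29.1% of all tested genes did so. These were all but Bgn and Aspn, and they include Prelp, which had to differ. Fibroblast markers also differed between groups, and not all in the same direction. Vim was higher in all 4 libraries with TGF-β1 than in vehicle (log2 fold change 0.29 with DMSO). Col1a1 was at 428 and 374 normalized CPM in vehicle and at 847 and 438 with DMSO (0.68), where replicate 2 lay just above vehicle. With BI6727 Col1a1 overlapped vehicle. Col3a1 overlapped vehicle with DMSO (0.31) and was lower with BI6727 (-0.58). Vim, Col1a1 and Col3a1 were not called. Thy1 was at 188 and 165 normalized CPM in vehicle, 95.6 and 94.3 with DMSO (log2 fold change -0.89, edgeR adjusted p = 0.000570, short of a 2-fold change) and 89.8 and 88.3 with BI6727. Pdgfrb, S100a4 and Col1a2 were lower in all 4 libraries with TGF-β1 than in vehicle, with log2 fold changes of -0.72, -1.005 and -0.66 with DMSO, which were not called, and Pdgfrb (-1.18) and Col1a2 (-1.03) were called lower with BI6727. Among markers of other cell types 2 were called higher. Krt14 had 3 and 4 counts in vehicle, 36 and 38 with DMSO, where it was called (edgeR adjusted p = 0.00432), and 14 and 10 with BI6727. Sp7 had 2 and 0 counts in vehicle, 43 and 28 with DMSO (edgeR adjusted p = 0.00150) and 62 and 77 with BI6727 (edgeR adjusted p = 0.000336). Krt14 and Sp7 reached the minimum of 10 counts only through the libraries with TGF-β1, so a difference from vehicle was built into their testing. The immune markers summed to 3.67 to 4.61 normalized CPM in vehicle, 2.90 to 2.97 with DMSO and 3.02 to 3.15 with BI6727, with Adgre1 and Cd3e at 0. The 5 epithelial markers summed to 0.352 to 0.492, 1.89 to 2.24 and 0.817 to 1.65, with Krt5 at 0, and the 4 endothelial markers to 0.302 to 0.895, 2.83 to 3.71 and 1.98 to 2.61, with Kdr at 0. The 5 bone markers summed to 0.313 to 0.906, 1.70 to 2.62 and 3.76 to 3.90, with Ibsp at 0. Of the 3 tendon markers, which summed to 23.9 to 25.2, 36.7 to 47.5 and 42.1 to 44.8, nearly the whole was Mkx and Tnmd was at 0. The 5 cartilage markers were nearly all Sox9 and summed to 122 to 135, 141 to 183 and 170 to 186, with Col9a1 at 0. The part of these markers in the results above was not tested.

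TGF-β1 with BI6727 was compared with vehicle to see whether the same transcripts were low when BI6727 was added. Decorin, lumican and prolargin were again lower than in vehicle, as were osteoglycin and asporin. Of the 8 tested members 5 were called lower, or 4 of the 7 other than Prelp, against 3.13% of all tested genes called lower and 5.18% called in either direction. At an unadjusted p below 0.05 there were 7, Prelp among them, against 30.6% of all tested genes. The BI6727 pair lay below the vehicle pair without overlap for each of the 8 tested members, as for 32.4% of all tested genes. Here too Prelp had to differ. This comparison shares its vehicle libraries with the one before, so the values are given side by side only.

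Dcn had a log2 fold change of -1.91 ± 0.16 (edgeR adjusted p = 4.11e-05), next to -1.96 with DMSO. For Lum it was -3.60 ± 0.40 (edgeR adjusted p = 0.000276), next to -3.14. Prelp was at -5.48 ± 0.76 (edgeR adjusted p = 0.00103), with 2 counts left in BI6727 and a count ratio of 49.5 (counting interval 13.35 to 415). Ogn was at -4.20 ± 0.67 (edgeR adjusted p = 0.00223), next to -2.09, and its counts fell from 77 in vehicle to 4 (count ratio 19.5, counting interval 7.30 to 73.2). Aspn was at -4.08 ± 0.81 (edgeR adjusted p = 0.00747), next to -0.56, with a count ratio of 17.7 (counting interval 6.61 to 66.7). Calls of the rare genes rested on having both replicates. Prelp, Ogn and Aspn lost theirs when any vehicle or BI6727 replicate was left out, with edgeR adjusted p between 0.0106 and 0.111, and Lum lost its own without vehicle replicate 1 (0.0127) or BI6727 replicate 2 (0.0108).

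Omd, with 2 counts in BI6727 against 43 in vehicle (count ratio 21.7, counting interval 5.66 to 185), had a log2 fold change of -4.29 ± 0.98 and just missed the threshold (edgeR adjusted p = 0.0147). It passed under 8 of the 16 other settings tried. Vcan was at -0.77 ± 0.27 (edgeR adjusted p = 0.0875) and Bgn at -0.29 ± 0.15 (edgeR adjusted p = 0.236). Neither reached a fold change of 2 in either comparison.

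**Figure D3:**
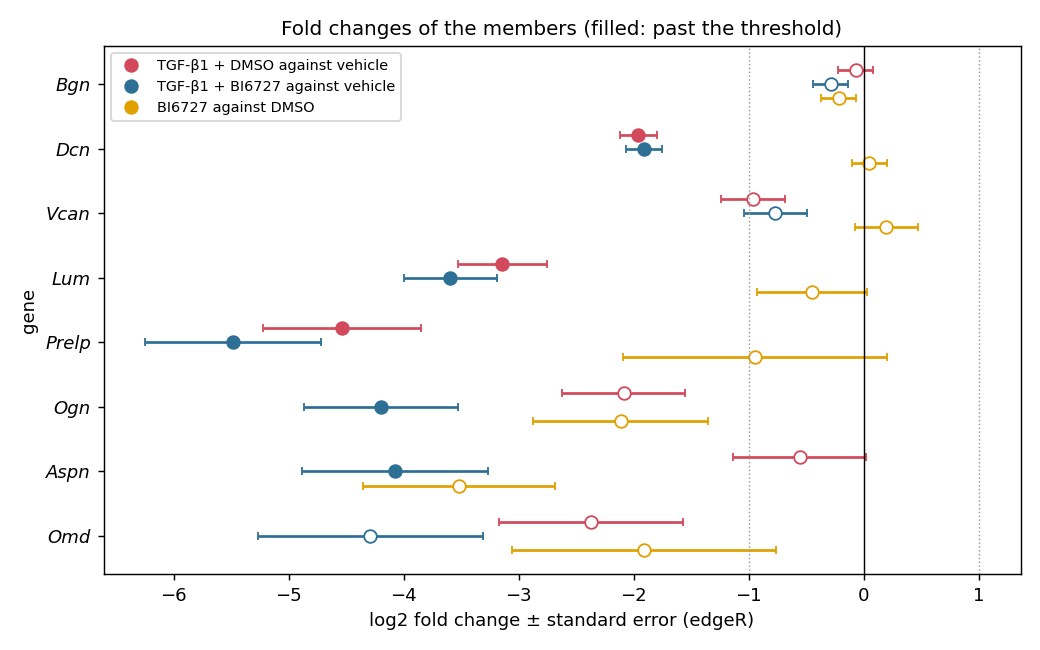
Log2 fold change with its standard error (x axis, edgeR) of the 8 tested members (y axis) for each pair of groups, filled where the change passed the threshold. Against vehicle, Dcn lies at -1.96 and -1.91 and Bgn at -0.07 and -0.29, and no point for BI6727 against DMSO is filled.

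BI6727 was compared with DMSO, both with TGF-β1, to find what the compound changed in cells given the cytokine. No member was called, and only 2 of all tested genes were (0.0112%). At an unadjusted p below 0.05 edgeR had 2 members, Aspn and Ogn, where 6.57% of all tested genes passed, and DESeq2 and limma's voom also called 0 members. Both BI6727 libraries lay below both DMSO libraries for 4 of the 8 tested members, Ogn, Prelp, Aspn and Omd, where 17.4% of all tested genes did so. For Prelp, 3 of these 4 libraries held 2 counts each, so its order rests on library size. These are the 4 rarest of the tested members, with 2 or 4 counts each in the 2 BI6727 libraries together.

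Asporin differed most. Its counts were 36 and 12 with DMSO and 2 and 2 with BI6727, a ratio of 12.1 with a counting interval of 4.45 to 46.4. The log2 fold change was -3.52 ± 0.83 with a 95% interval of -5.39 to -1.65, but edgeR's quasi-likelihood test gave an adjusted p of 0.510 over all genes (unadjusted 0.00194). It passed without DMSO replicate 2 (-4.13, edgeR adjusted p = 0.00387) and did not without DMSO replicate 1 (-2.52, edgeR adjusted p = 0.0889). Ogn had 18 counts with DMSO and 4 with BI6727, a ratio of 4.55 (counting interval 1.5 to 18.5) and a log2 fold change of -2.11 ± 0.76 (edgeR adjusted p = 0.719). Prelp and Omd had too few counts in either group for a difference to be detectable at this depth, with counting intervals for the ratio of 0.290 to 22.4 and 0.808 to 39.1.

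The abundant members Dcn, Bgn and Vcan bounded the effect of BI6727 more tightly. For Dcn the log2 fold change was 0.05 with a 95% interval of -0.29 to 0.39 (edgeR adjusted p = 0.971), and a rise of 1.96, which would restore the vehicle level, lay outside that interval. For Bgn it was -0.22 with an interval of -0.56 to 0.12 (edgeR adjusted p = 0.854). Vcan had 0.19 with an interval of -0.42 to 0.81 (edgeR adjusted p = 0.929). Its sign depended on the DMSO replicate left out, with 0.86 without replicate 1 and -0.28 without replicate 2. Lum was less abundant, with 24 and 19 counts with DMSO and 20 and 11 with BI6727. Its log2 fold change of -0.45 had a wider interval, -1.52 to 0.62 (edgeR adjusted p = 0.905).

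For the 3 members with a mean of at least 10 normalized CPM, the genes with the most similar pattern were sought among the 9708 genes with such a mean, by the root mean square (RMS) difference of centred log2 CPM over the 6 libraries. Closest to Dcn were Il1r1, a receptor of interleukin-1 (RMS 0.11), and Ppp1r12b, a subunit of myosin phosphatase (0.11). Il1r1 went from 111 and 99.7 normalized CPM in vehicle to 28.7 and 21.9 with DMSO and 24.9 and 23.0 with BI6727. Bgn was closest to Marveld1 and Dcbld2 (RMS 0.05 for both). Lamc1, a chain of laminin, was closest to Vcan (RMS 0.05), and like Vcan it differed between the DMSO libraries, at 109 and 52.8 normalized CPM. The next for Vcan was Pcdhgb2 (RMS 0.09), which shares 43.4% of its exonic length with other genes of its cluster, so its counts are uncertain.

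The genes that build, cut and bind these proteoglycans were taken as 8 lists of 76 genes, of which 59 were tested. With TGF-β1 and DMSO 4 of them rose and 6 fell against vehicle, and the same 10 were called with TGF-β1 and BI6727, a comparison that shares the vehicle libraries. The 4 include Tll1, which could be tested only through its counts with TGF-β1, so it had to differ in both comparisons. Of all tested genes, 2.3% were called higher and 2.72% lower with DMSO, and 2.05% higher and 3.13% lower with BI6727. Between BI6727 and DMSO edgeR called 0 of the 59, DESeq2 and voom also called 0, and 7 had an unadjusted p below 0.05, where 6.57% of all tested genes did.

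The enzymes of sugar chains gave 1 call in each of 3 lists. Of the 6 tested enzymes that make the linkage between core protein and chain, B4galt7, which adds the first galactose, rose from 22.7 and 19.0 normalized CPM in vehicle to 56.6 and 65.4 with DMSO (log2 fold change 1.55 ± 0.14, edgeR adjusted p = 7.71e-05), and stood at 63.6 in both BI6727 libraries. Of its exonic length, 3.8% is covered by Gm15911, with 2 to 10 counts in each library. Among 13 tested enzymes of chondroitin and dermatan sulfate chains, Chst12, a chondroitin sulfotransferase, fell from 33.9 and 31.6 to 16.6 and 15.3 with DMSO (-1.04 ± 0.14, edgeR adjusted p = 0.000961). It only just passed the 2-fold minimum, and the other 12 were not called. Among 5 tested enzymes of keratan sulfate chains, Chst2, which sulfates N-acetylglucosamine, rose from 31.0 and 28.9 to 79.7 and 84.3 (1.45 ± 0.13, edgeR adjusted p = 7.84e-05). None of the 10 genes for the supply of sulfate donor and sugar was called, with 4 at an unadjusted edgeR p below 0.05, where 30.5% of all tested genes passed. Ugdh, which makes UDP-glucuronic acid, was at 350 to 368 normalized CPM in vehicle and 283 to 316 in the other 4 libraries, and Bpnt2 (Impad1 in the annotation used) at 156 to 183 across all 6.

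The list of proteases also holds Pcolce, an enhancer and not itself a protease. Of its 7 tested genes 5 were called with DMSO, 2 higher and 3 lower, against 5.02% of all tested genes in either direction. Tll1, 1 of the 2 called higher, reached the minimum for testing only through the libraries with TGF-β1, so it had to differ. Bmp1, the procollagen C-proteinase that also cuts the propeptide of biglycan, rose from 91.1 and 82.8 normalized CPM to 234 and 184 with DMSO (1.27 ± 0.13, edgeR adjusted p = 0.000208) and was at 213 and 212 with BI6727. Its relative Tll1 went from 2 and 4 counts in vehicle to 359 and 268 with DMSO (6.65 ± 0.35, edgeR adjusted p = 3.47e-06) and 170 and 241 with BI6727. Pcolce, which enhances the cut by Bmp1, fell from 556 and 477 to 244 and 222 with DMSO (-1.15 ± 0.12, edgeR adjusted p = 0.000174) and was at 159 and 165 with BI6727.

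Of the 4 tested proteases that can cleave versican, Adamts5 and Adamts9 fell, and Adamts1 and Adamts4 were not called. Adamts4 went the other way, from 11.1 and 10.02 normalized CPM in vehicle to 27.3 and 16.1 with DMSO (1.04 ± 0.23, edgeR adjusted p = 0.0136) and 21.1 and 21.65 with BI6727. Adamts1 was at 32.1 to 49.9 in all libraries. Adamts5 went from 36.3 and 31.6 normalized CPM to 9.33 and 6.80 with DMSO (-2.07 ± 0.21, edgeR adjusted p = 0.000149) and 5.71 and 7.72 with BI6727. Adamts9 was rare, with 45 and 61 counts in vehicle, 9 and 2 with DMSO (-3.23 ± 0.59, edgeR adjusted p = 0.00523) and 6 and 7 with BI6727. Of its 15048 exonic bases, 1381 are shared with A730049H05Rik and 424 with Gm15737, antisense genes with 0 to 2 counts in each library.

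Of 9 tested receptors that decorin, biglycan or versican can bind, the toll-like receptors Tlr2 and Tlr4 fell and the other 7 were not called. Cd44, the hyaluronan receptor, and the integrin chain Itgb1 were higher in all 4 libraries with TGF-β1 and missed only the 2-fold minimum, with log2 fold changes of 0.74 (edgeR adjusted p = 0.00184) and 0.73 (edgeR adjusted p = 0.00161) with DMSO, and 0.93 and 0.81 with BI6727. Tlr2 went from 66.2 and 48.0 normalized CPM to 17.4 and 13.7 with DMSO (-1.88 ± 0.19, edgeR adjusted p = 0.000148), and was at 13.2 and 12.6 with BI6727. Tlr4 went from 100.8 and 98.8 to 56.2 and 42.6 with DMSO (-1.01 ± 0.15, edgeR adjusted p = 0.00166), only just past the 2-fold minimum. It was at 44.3 and 51.8 with BI6727.

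**Figure D4:**
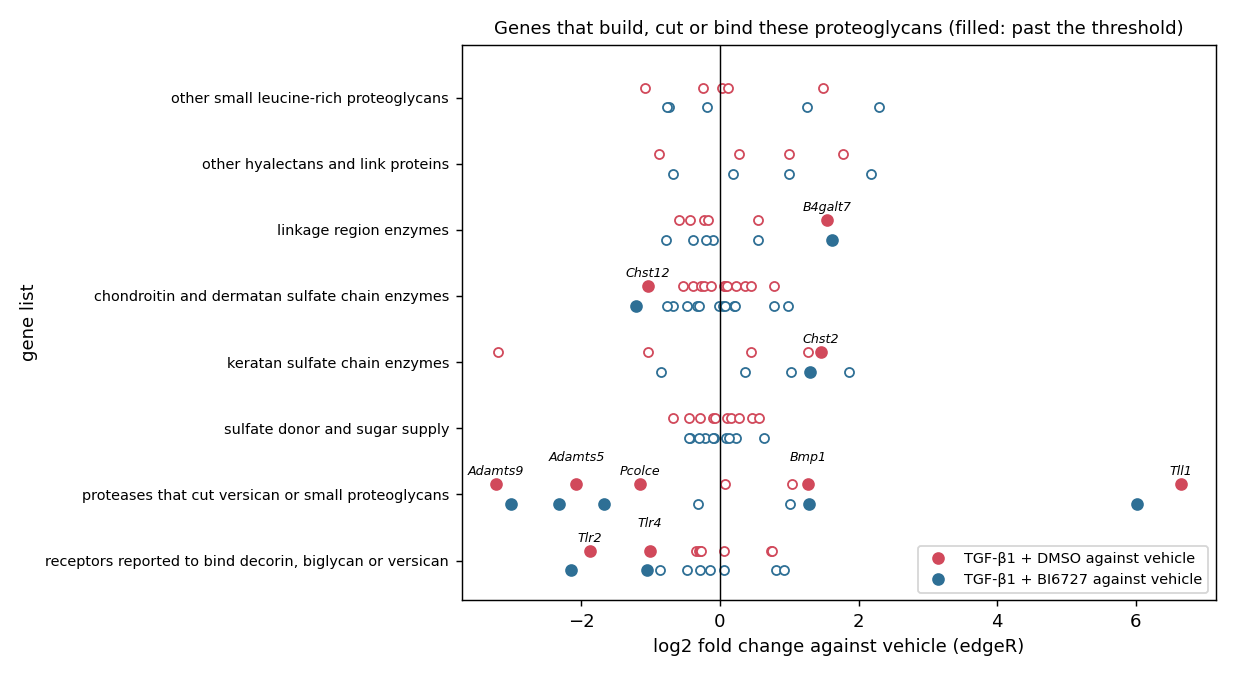
Log2 fold change against vehicle (x axis, edgeR) of the 59 tested genes in 8 lists (y axis), for each group with TGF-β1, filled where the change passed the threshold. The named genes passed it in both comparisons, from Adamts9 at -3.23 to Tll1 at 6.65 with DMSO.

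Among the other small leucine-rich proteoglycans, 5 of 9 were tested and 0 were called by edgeR in any comparison, with 0 at an unadjusted p below 0.05 for DMSO against vehicle, 1 for BI6727 against vehicle and 1 for BI6727 against DMSO. Of all tested genes, 30.5%, 30.6% and 6.57% passed in these comparisons. The 2 with the highest levels were Podnl1, a relative of podocan, and Tsku. Podnl1 was at 39.1 and 40.3 normalized CPM in vehicle, 29.7 and 37.0 with DMSO and 23.4 and 23.2 with BI6727, with no overlap between groups. For BI6727 against vehicle its log2 fold change of -0.77 ± 0.14 had an edgeR adjusted p of 0.00570 but a fold change below 2. Tsku was at 27.0 to 40.3 in all libraries. Of the other proteoglycans of the versican family and their link proteins, 4 of 7 were tested and 0 were called by edgeR, with 1 at an unadjusted p below 0.05 in each comparison with vehicle and 0 between BI6727 and DMSO. The same shares of all tested genes apply here, so such counts set neither list apart. Hapln4 was at 13.4 to 17.998 normalized CPM in all libraries. Bcan, the brain member of the family, had 8 and 10 counts in vehicle, 38 and 24 with DMSO and 24 and 62 with BI6727 (log2 fold change 1.77 ± 0.52, edgeR adjusted p = 0.0468, and 2.18 ± 0.51, edgeR adjusted p = 0.0171).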

How the data were processed

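RNA-seq was available for 6 libraries of NIH/3T3 cells (2 per group), assigned to groups from the sample labels. The authors mapped single-end reads to mm10 with Subjunc, counted them on Gencode M20 genes with featureCounts (Subread 1.6.4), and deposited raw counts per gene. The strand setting is not given in the sources used here. Of 54752 identifiers, 54723 matched a symbol.

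Groups were compared by edgeR 4.0.16 in R 4.3.3 (TMM, quasi-likelihood test, 1 fit of 6 libraries, 3 residual degrees of freedom) over 17936 genes with at least 10 counts in total. The filter in the methods of the study, 10 CPM in more than 3 samples, cannot be passed by a gene high in vehicle alone, so it served as an alternative. Genes were called at a Benjamini-Hochberg adjusted p below 0.01 and a fold change above 2. Standard errors are the log2 fold change divided by the square root of F, and 95% intervals use the degrees of freedom of the test. Log2 CPM used a prior count of 1. Count ratios have conditional exact intervals. The test was checked on simulated counts.

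Named were the 10 members, the genes of each list past the threshold in any comparison or else the 2 most abundant, and the 2 genes closest in pattern to each member with a mean of 10 CPM. Members and lists were chosen with earlier results of these data known. Alternatives were DESeq2 1.42.0, its size factors, 3 other filters, only the groups compared, a replicate block, offsets for gene length, limma 3.58.1 voom with sample quality weights, another threshold, and each replicate left out in turn. A crossed block and the coding transcript length were added after the data were seen. A gene of the immune marker list is not reported here. Exonic lengths came with the deposited counts, transcript lengths are from Gencode M21, and promoters from RefSeq (GRCm38.p6).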

Additional observations from a re-analysis of the deposited data

How the results depend on the processing

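Dcn kept its call against vehicle under all 17 other settings, with a log2 fold change of -2.15 to -1.78 with DMSO and -2.08 to -1.74 with BI6727. With the filter at 10 CPM in more than 3 samples, only Dcn, Bgn and Vcan were tested, so 1 member was called in each comparison with vehicle, and 485 and 505 of all genes (901 and 929 with the filter on total counts). At an adjusted p below 0.05 with no fold change minimum, 5 members, 2880 genes and 21 list genes were called for DMSO against vehicle, and 3070 genes and 25 list genes for BI6727 against vehicle. Between BI6727 and DMSO, where 2 genes were called, DESeq2 called 15, the filter at 10 CPM 0, filterByExpr 0, at least 1 count in any library 47 with 1 member (Aspn), only the groups compared 0, length offsets 13 and voom 4. The cause of these differences was not tested. The setting with at least 1 count gave some negative F statistics, so its p-values are uncertain. Ogn against vehicle with DMSO was called there alone (adjusted p = 0.00315).

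With a replicate left out, the lone library of its group is assumed to vary like the others. Called members then ranged from 1 to 4 for DMSO against vehicle, from 1 to 6 for BI6727 against vehicle and from 0 to 1 between BI6727 and DMSO (Aspn, without DMSO replicate 2). Called genes ranged from 305 to 1435, from 357 to 1227 and from 0 to 92, lowest against vehicle without vehicle replicate 1 and highest for DMSO against vehicle and BI6727 against DMSO without DMSO replicate 1. List genes ranged from 5 to 12, from 6 to 13 and from 0 to 1.

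With a replicate left out or length offsets, signs turned only for changes that were not called. For DMSO against vehicle, Bgn was at 0.0069 with length offsets and ranged from -0.34 to 0.17, and Aspn from -1.57 to 0.046, the higher value of each without DMSO replicate 2. Between BI6727 and DMSO, Dcn ranged from -0.14 to 0.23 (negative without DMSO replicate 2 and, at -0.037, without BI6727 replicate 1), Lum from -1.17 to 0.11 (positive without BI6727 replicate 2), Bgn from -0.46 to 0.045 (positive without DMSO replicate 1) and Vcan from -0.28 to 0.86 (negative without DMSO replicate 2). Vcan against vehicle with DMSO was called with voom (-1.07, adjusted p = 0.00268).

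Deviations of same-numbered libraries correlated at -0.10 (DMSO and vehicle), -0.23 (BI6727 and DMSO) and 0.04 (BI6727 and vehicle) over 9708 genes. The length trend of DMSO replicate 2 enters the values with DMSO. The correlations therefore cannot settle whether the replicate numbers pair the samples. With the replicate block 3, 0 and 5 members were called, as without it, and 904, 0 and 906 genes for DMSO against vehicle, BI6727 against DMSO and BI6727 against vehicle. With length offsets and the replicate block 18 genes were called between BI6727 and DMSO, and with the crossed replicate block 4.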
